A study of Mus musculus with 6 samples.

Results

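Cell junction genes were examined in 6 livers of C57BL/6 mice, 3 wild type and 3 Mettl3-deficient. The members were 37 listed genes of tight, adherens, desmosome and gap junctions, all found by symbol among the 27179 genes of the count files, and 36 of them passed the filter on low counts with 14380 genes in all. They comprised 12 claudins, 3 tight junction proteins of the MARVEL family (occludin and its relatives), 3 tight junction scaffolds, 3 junctional adhesion molecules, 3 cadherins, 2 catenins, 5 desmosome genes, 3 connexins and 3 nectins. Mettl3 encodes the enzyme that deposits N6-methyladenosine on messenger RNA. The sources used here do not give how it was made deficient, in which cells, or the age and sex of the animals. Whole liver RNA was sequenced, so fewer cells of a type and less RNA per cell cannot be told apart.

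Hepatocytes are polarised cells that seal a narrow bile canaliculus between neighbours. Claudins, with occludin and tricellulin, form the strands of the seal, and scaffold proteins tie those strands to actin. Cadherins and nectins hold the cells together below the seal, desmosomes anchor keratin filaments, and connexins form gap junction channels that pass small molecules between hepatocytes. Bile duct cells carry a different set of claudins and more E-cadherin, and endothelial cells use their own claudin and cadherin.

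Claudins are small membrane proteins that share a signature in the first extracellular loop. A form of the signature was found in the coding sequence of 12 of 12 members. Cldn10 and Cldn15 had AAC in place of the glycine codon, and Cldn12 had 15 codons in place of 16. It is shown for the 4 claudins that rose and for Cldn1, the most changed of the abundant claudins that were not called, because the letters also show how far their reads can be told apart. The capitals mark the codons of the conserved glycine, leucine, tryptophan and both cysteines (GENCODE M21 transcripts, GRCm38, 5′ to 3′).
Cldn3: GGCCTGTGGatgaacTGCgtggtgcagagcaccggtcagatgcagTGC
Cldn4: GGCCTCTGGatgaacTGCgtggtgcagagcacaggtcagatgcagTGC
Cldn1: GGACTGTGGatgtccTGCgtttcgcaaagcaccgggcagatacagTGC
Cldn7: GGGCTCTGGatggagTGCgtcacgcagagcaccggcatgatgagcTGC
Cldn23: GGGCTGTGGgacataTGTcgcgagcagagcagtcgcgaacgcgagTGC
Cldn3 and Cldn4 had 46 identical bases of 48 here, against 39 for Cldn3 and Cldn1, 35 for Cldn3 and Cldn7 and 27 for Cldn3 and Cldn23. The longest run of bases that the Cldn3 and Cldn4 transcripts share without a mismatch was 35, the longest for any pair within a class of members. The sources used here do not give the read length, so reads confined to such a run could be split between the pair.

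Libraries held 31960205 to 36025772 counts. Mettl3 itself was measured at 13.4, 14.3 and 12.1 CPM (counts relative to library size, scaled with TMM factors) in wild-type livers and at 5.96, 6.60 and 4.94 CPM in Mettl3-deficient livers, with no overlap. Wild type replicate 1 stood apart, with correlations across genes of 0.943 and 0.939 with the other wild-type libraries against 0.983 between those, and calls that were gained or lost without it are given beside the gene. The TMM factors ran from 0.825 to 0.881 in wild-type and from 1.12 to 1.25 in Mettl3-deficient libraries. Scaled by library size alone, the median of all genes (log2 fold change) moved from 0.01 to 0.49, and that of the members from 0.45 to 0.92. Transcripts of Y-linked genes were counted in 1 wild-type library (replicate 1, 6508 counts) and 2 Mettl3-deficient libraries (replicate 1, 4747, and replicate 2, 5031). The other libraries had 0. A fit without wild type replicate 1 therefore leaves only wild-type libraries without such counts. Whether this contributed to the calls gained or lost in that fit was not tested.

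Of the 36 tested junction genes, 15 rose, 1 fell and 20 were not called in Mettl3-deficient livers (edgeR quasi-likelihood test, Benjamini-Hochberg adjusted p under 0.05 over all genes). Over all tested genes 13.3% rose and 10.5% fell, 23.8% in either direction, against 41.7% and 2.78% of the members. The members were chosen with earlier results of these data known, so this contrast is a description and not a test. Of 66 other tested junction genes, 10 rose and 4 fell. Without Cldn23, which passed the filter only through the Mettl3-deficient libraries, 14 of 35 members rose. The median log2 fold change was 0.45 for the members and 0.01 for all tested genes. In 20 members every Mettl3-deficient library lay above every wild-type library and in 6 every one lay below, against 23.9% and 21.9% of all tested genes. Cldn3, Cldn4, Marveld2 and Dsp kept their call whichever of the 6 libraries was dropped. Dropping Mettl3-deficient replicate 1 left 5 that rose, as did dropping wild type replicate 2. The number was 7 without wild type replicate 3 and 8 without Mettl3-deficient replicate 2 or replicate 3. Without wild type replicate 1, 13 rose and 3 fell. With library size alone 23 rose and 0 fell, and the 8 gained were Cdh2, Cldn1, Cldn2, Ctnna1, Ctnnd1, Gjb2, Nectin1 and Tjp1.

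**Figure D1:**
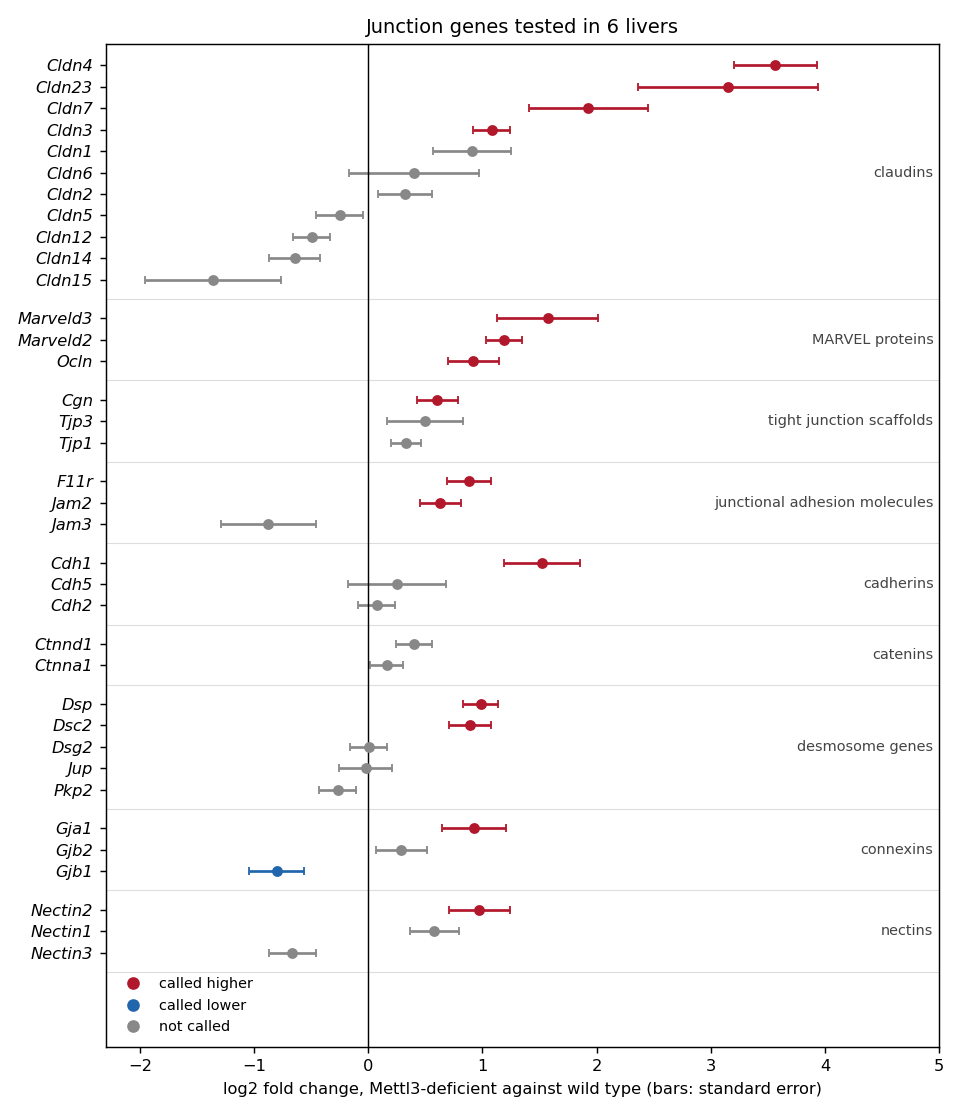
The log2 fold change of each of the 36 tested junction genes, Mettl3-deficient against wild type, is plotted as a point with its standard error, grouped by class, with 3 libraries per group. Red points were called higher (15 genes), the blue point lower (Gjb1), and grey points were not called. Cldn4 had the highest value at 3.57.

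Of 11 tested claudins 4 rose (Cldn3, Cldn4, Cldn7 and Cldn23) and 0 fell, or 3 of 10 without Cldn23, which passed the filter only through the Mettl3-deficient group. Cldn4, a claudin of many epithelia that hepatocytes barely use, was measured at 0.426, 0.566 and 0.739 CPM in wild-type livers and at 8.32, 4.83 and 7.45 CPM in Mettl3-deficient livers. Every Mettl3-deficient library was several times above every wild-type library, although Mettl3-deficient replicate 2 was lower than the other two. Cldn4 had a log2 fold change of 3.57 ± 0.36 (SE), 11.8-fold, with an edgeR adjusted p of 0.00161. These levels rest on 12, 16 and 20 counts in the wild-type libraries and on 335, 218 and 294 in the others.

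Cldn3, the most abundant claudin of these livers per length, was measured at 97.1, 90.2 and 84.7 CPM in wild type and at 196, 189 and 191 CPM in Mettl3-deficient livers. Replicates lay close together in both groups and the groups did not overlap. The log2 fold change was 1.08 ± 0.16 (SE; edgeR adjusted p = 0.00545). Leaving out any 1 library kept the log2 fold change of Cldn3 between 1.03 and 1.13.

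Cldn7, which is found in bile duct and other epithelia, was measured at 0.568, 1.70 and 0.776 CPM in wild type and at 5.04, 2.02 and 4.56 CPM in Mettl3-deficient livers. The lowest Mettl3-deficient library, replicate 2, was close to the highest wild-type library. Cldn7 had a log2 fold change of 1.93 ± 0.52 (SE; edgeR adjusted p = 0.0340), and its call was lost when replicate 1 or 3 of either group was left out, with a highest edgeR adjusted p of 0.113. Cldn23 had 4, 4 and 0 counts in the wild-type libraries and 38, 28 and 42 in the Mettl3-deficient ones. Having passed the filter through that group only, it had to differ. Its ratio from summed counts was 9.02 (exact 95% interval 4.42 to 21.4, which covers counting error only), and its call was lost in 4 of the 6 fits with 1 library dropped, those that dropped wild type replicate 2 or any one of the Mettl3-deficient livers (highest edgeR adjusted p 0.0868).

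Cldn1, a claudin that hepatocytes need for a tight canalicular seal, was measured at 165, 70.1 and 73.1 CPM in wild type and at 190, 172 and 217 CPM in Mettl3-deficient livers. Wild type replicate 1 was far above the other wild-type libraries and just below the Mettl3-deficient ones. The log2 fold change was 0.91 ± 0.34 (SE) and was not called (edgeR adjusted p = 0.0889). Without wild type replicate 1 it was 1.43 and was called (edgeR adjusted p = 0.00519), as it was with DESeq2 on all 6 libraries (adjusted p = 0.0347). Cldn2, a pore-forming claudin of pericentral hepatocytes, had 49.6, 68.2 and 60.8 CPM in wild type and 80.0, 51.0 and 91.5 CPM in Mettl3-deficient livers, with overlap and no call (log2 fold change 0.32, edgeR adjusted p = 0.349).

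Cldn12 and Cldn14 had lower values in every Mettl3-deficient library. Cldn12 was measured at 75.3, 100 and 97.0 CPM in wild type and at 61.5, 62.4 and 69.4 CPM in Mettl3-deficient livers. Its log2 fold change was -0.50 ± 0.16 (SE; edgeR adjusted p = 0.0605). Cldn14, another hepatocyte claudin, had 9.66, 13.9 and 10.6 CPM against 8.47, 6.80 and 6.59 CPM and a log2 fold change of -0.65 ± 0.22 (SE; edgeR adjusted p = 0.0687). Neither was called with all 6 libraries in edgeR. Without wild type replicate 1 both were (edgeR adjusted p = 0.0208 for Cldn12 and 0.0475 for Cldn14), and with DESeq2 Cldn14 was (adjusted p = 0.0470). With library size alone their log2 fold changes were -0.02 and -0.17.

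The remaining claudins were not called, and Cldn10 was not tested. Cldn5, the claudin of endothelial cells, had a mean of 7.05 ± 0.368 CPM in wild type and 5.92 ± 0.563 CPM in Mettl3-deficient livers (SD, n = 3; log2 fold change -0.25, edgeR adjusted p = 0.392, and 0.23 with library size alone). Every Mettl3-deficient library lay below every wild-type one for Cldn5. Cldn6, an embryonic claudin, had log2 fold change 0.40 (edgeR adjusted p = 0.634), which was -0.03 without wild type replicate 1. Cldn15, a cation channel claudin of the gut, had 3.30, 1.56 and 0.665 CPM in wild type and 0.571, 0.620 and 0.963 CPM in Mettl3-deficient livers (log2 fold change -1.36, edgeR adjusted p = 0.132, and -0.63 without wild type replicate 1). Cldn10 had 6 counts over the wild-type and 2 over the Mettl3-deficient libraries.

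Cldn3 was the most abundant claudin in both groups, and its share of the family was higher in the Mettl3-deficient livers. To compare genes, counts were divided by exon length, which gives RPKM (CPM per kilobase of exon). In wild-type livers Cldn3 was first with 72.0 ± 4.96 RPKM, then came Cldn12 with 21.5 ± 3.19, Cldn1 with 21.2 ± 11.2 and Cldn2 with 17.9 ± 2.82 (SD, n = 3), and these last 3 did not differ beyond their spread. Cldn14 and Cldn5 followed at 5.35 ± 1.06 and 4.98 ± 0.260 RPKM, again within their spread, and the other 6 claudins were each below 1 RPKM. In Mettl3-deficient livers the order was Cldn3 at 152 ± 2.81, Cldn1 at 39.9 ± 4.68, Cldn2 at 22.3 ± 6.28 and Cldn12 at 15.2 ± 1.02 RPKM.

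Summed over the family, claudin transcripts were at 156, 145 and 135 RPKM in wild-type livers and at 250, 228 and 256 RPKM in Mettl3-deficient livers. Shares of that sum do not depend on the scaling of libraries. Cldn3 made up 49.6%, 49.4% and 49.7% of it in wild type and 62.2%, 65.7% and 59.2% in Mettl3-deficient livers. Cldn12 made up 11.5%, 16.3% and 17.0% in wild type and 5.83%, 6.47% and 6.41% in Mettl3-deficient livers. Cldn4 went from a mean of 0.222% to 1.53%. These shares are given as a description, with no test.

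**Figure D2:**
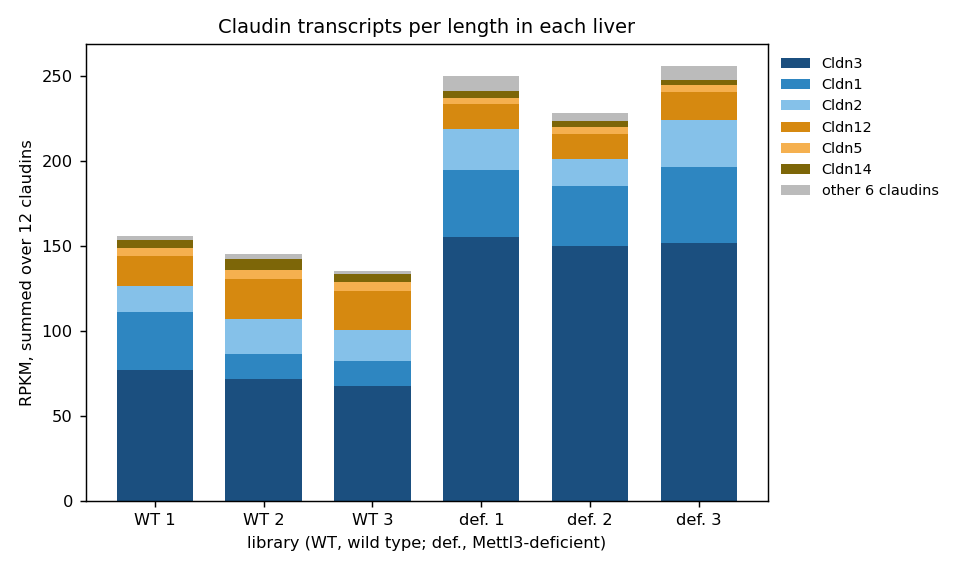
Stacked bars give the RPKM of the claudins in each of the 6 libraries, with the 6 most abundant claudins in colour and the other 6 in grey. The bars reach 135 to 156 RPKM in the wild-type libraries and 228 to 256 RPKM in the Mettl3-deficient libraries, and Cldn3 is the largest segment in each.

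Of the MARVEL genes among the members 3 of 3 rose, while their relative Marveld1, outside the members, fell (log2 fold change -1.82, edgeR adjusted p = 0.0165). Ocln, which encodes occludin, was measured at 27.9, 15.7 and 22.3 CPM in wild type and at 36.9, 40.3 and 47.5 CPM in Mettl3-deficient livers. Marveld2, which encodes tricellulin, the protein of corners where cells meet, was at 13.9, 12.4 and 13.4 CPM in wild type and at 31.6, 33.3 and 25.8 CPM in Mettl3-deficient livers. Neither gene had overlapping groups, and Marveld2 was the more even in wild type. The log2 fold changes were 0.92 ± 0.23 for Ocln (SE; edgeR adjusted p = 0.0246) and 1.19 ± 0.16 for Marveld2 (edgeR adjusted p = 0.00390). Marveld3, the third relative, rose from 0.747 ± 0.323 to 2.22 ± 0.590 CPM (mean ± SD of 3 livers; edgeR adjusted p = 0.0373). Ocln lost its call on dropping any library other than wild type replicate 1, and Marveld3 in every one other than Mettl3-deficient replicate 3, with highest edgeR adjusted p-values of 0.0728 and 0.122.

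Of the 3 scaffold genes 1 rose. Cgn, which encodes cingulin, a link from the tight junction to actomyosin, was measured at 60.0, 44.5 and 41.0 CPM in wild type and at 80.5, 71.7 and 69.3 CPM in Mettl3-deficient livers (log2 fold change 0.61 ± 0.18 SE, edgeR adjusted p = 0.0442). The call of Cgn held only without wild type replicate 1 among the 6 fits with 1 library dropped (highest edgeR adjusted p 0.151). Tjp1, a scaffold that binds claudins, had 39.3 ± 1.69 CPM in wild type and 49.4 ± 2.28 CPM in Mettl3-deficient livers (SD, n = 3) with no overlap, and was not called (edgeR adjusted p = 0.0967). Tjp3, a related scaffold, had 61.5, 31.2 and 22.7 CPM in wild type and 54.4, 52.9 and 55.4 CPM in Mettl3-deficient livers. Its wild type replicate 1 lay above the Mettl3-deficient libraries, and without that library the log2 fold change moved from 0.50 (edgeR adjusted p = 0.299) to 1.01 (edgeR adjusted p = 0.0108).

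Among junctional adhesion molecules, immunoglobulin proteins beside the tight junction, 2 of 3 rose. F11r, the family member of epithelia and platelets, was measured at 71.5, 97.3 and 104 CPM in wild type and at 172, 170 and 162 CPM in Mettl3-deficient livers. The groups were well apart, and the log2 fold change was 0.88 ± 0.19 (SE; edgeR adjusted p = 0.0168), with the call lost on dropping either wild type replicate 2 or the first Mettl3-deficient library (highest edgeR adjusted p 0.0631). Jam2, found mainly on endothelium, rose from 8.23 ± 0.677 to 12.7 ± 1.36 CPM (mean ± SD of 3 livers; edgeR adjusted p = 0.0400), and its call was lost whichever library was dropped (highest edgeR adjusted p 0.120). Jam3 had lower values in each Mettl3-deficient library, 0.968, 0.554 and 1.19 against 1.31, 1.70 and 1.96 CPM, without a call (edgeR adjusted p = 0.160). An annotated antisense gene covers 1159 of the 3200 exon bases of Jam3, so without strand in the counting its reads could not be told apart.

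The claudin and MARVEL genes that rose included 2 pairs of chromosomal neighbours. Cldn4 and Cldn3 lie on chromosome 5, with 39.3 kb and no other annotated coding gene between them (GRCm38, Cldn4 at 134945123 to 134946934 and Cldn3 at 134986214 to 134987476). Ocln and Marveld2 lie on chromosome 13, with 43.2 kb between them and likewise no coding gene (100496504 to 100552718 and 100595957 to 100616971). The coding genes beside the first pair were not called. Mettl27 had a log2 fold change of 0.11 ± 0.38 (SE; edgeR adjusted p = 0.851), Abhd11 of 0.01 ± 0.15 (edgeR adjusted p = 0.963) and Stx1a of 0.77 ± 0.45 (edgeR adjusted p = 0.239). Beside the second pair, Naip1 had 1.02 ± 0.54 (edgeR adjusted p = 0.201), a value as high as that of Ocln but with a wider error, from levels below 1 CPM. Gtf2h2 had 0.30 ± 0.33 (edgeR adjusted p = 0.532) and Rad17, which begins 192 bases from Marveld2 on the other side, had -0.01 ± 0.15 (edgeR adjusted p = 0.980). Neighbours were looked up after the pairs were seen to rise.

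**Figure D3:**
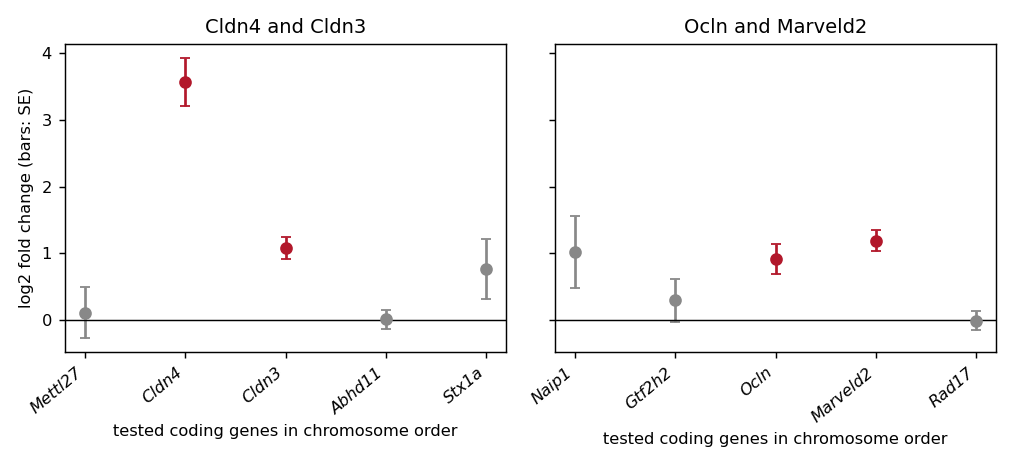
The log2 fold change with its standard error is plotted for the tested coding genes around Cldn4 and Cldn3 and around Ocln and Marveld2, in chromosome order but not to scale. The red points, the pairs themselves, lie at 3.57 and 1.08 and at 0.92 and 1.19, and the grey neighbours were not called.

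The RefSeq table held promoters for 25 of the 37 members. The 250 bases before the start are shown for Cldn4 and Cldn3, the neighbours that rose to different extents. F11r is also shown, the only other member with matches to both motifs marked below. Capitals mark matches on either strand to TGANTCA, the AP-1 motif, and to CACCTG, an E-box that repressors of the E-cadherin gene are known to bind (RefSeq, GRCm38.p6, 5′ to 3′ in the direction of the gene).
Cldn4 (chr5:134946935-134947184, minus strand): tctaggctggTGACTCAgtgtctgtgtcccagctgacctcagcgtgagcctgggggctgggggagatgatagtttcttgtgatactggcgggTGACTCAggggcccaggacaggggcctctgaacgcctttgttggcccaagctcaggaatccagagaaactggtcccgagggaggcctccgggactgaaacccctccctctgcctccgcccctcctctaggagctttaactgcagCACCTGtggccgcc
Cldn3 (chr5:134985964-134986213, plus strand): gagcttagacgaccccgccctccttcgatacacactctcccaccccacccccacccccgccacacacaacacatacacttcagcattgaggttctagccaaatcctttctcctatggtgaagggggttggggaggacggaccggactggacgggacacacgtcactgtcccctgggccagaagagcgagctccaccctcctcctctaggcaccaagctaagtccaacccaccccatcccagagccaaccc
F11r (chr1:171437311-171437560, plus strand): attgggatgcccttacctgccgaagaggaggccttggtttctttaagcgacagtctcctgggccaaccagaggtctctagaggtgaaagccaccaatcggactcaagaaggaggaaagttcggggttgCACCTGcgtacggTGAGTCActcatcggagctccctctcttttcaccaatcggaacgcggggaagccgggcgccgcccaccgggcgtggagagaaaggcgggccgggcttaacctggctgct
The Cldn4 stretch held 2 AP-1 matches and 1 E-box, that of F11r held 1 of each and that of Cldn3 none. Ocln and Marveld2, the other neighbours that rose, are not shown and held no AP-1 match before any start. Ocln had 2 E-boxes before 1 of its starts and none before the other, and Marveld2 had none. AP-1 matches were present in 4 of the 25 members with a promoter (Cldn4, Cldn15, F11r and Gja1), or 16.0%, and in 5.92% of tested genes with one. The 25 members include Cldn10, which was not tested. The E-box letters were present in 10 of those members and in 18.4% of tested genes, and the GC box GGGCGG in 20 members and 61.1% of tested genes. The motifs were chosen after the Cldn4 promoter had been read, and a match of letters is not a bound site.

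Of the cadherins, Cdh1 rose and the others did not pass the test. Cdh1, which encodes E-cadherin and is strongest in periportal hepatocytes and bile ducts, was measured at 34.9, 23.8 and 31.3 CPM in wild type and at 75.3, 132 and 52.0 CPM in Mettl3-deficient livers. Mettl3-deficient replicate 2 was the highest and replicate 3 the lowest of its group, all above wild type. Cdh1 had a log2 fold change of 1.52 ± 0.33 (SE; edgeR adjusted p = 0.0173), and the call was lost without wild type replicate 2 or 3 (highest edgeR adjusted p 0.0675). Cdh2, the N-cadherin gene that hepatocytes also express, had 71.2 ± 3.86 CPM in wild type and 74.98 ± 12.1 CPM in Mettl3-deficient livers (SD, n = 3; log2 fold change 0.08 ± 0.16 SE, edgeR adjusted p = 0.758). Cdh5, the endothelial cadherin, had 4.19, 10.9 and 13.6 CPM in wild type and 8.66, 15.9 and 9.45 CPM in Mettl3-deficient livers, with overlap (log2 fold change 0.25, edgeR adjusted p = 0.698, and -0.11 without wild type replicate 1).

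Per length, the balance of Cdh1 and Cdh2 differed between the groups without overlap. The share of Cdh2 in the counts per kb of both genes was 52.1%, 63.9% and 56.7% in wild type and 34.4%, 22.3% and 49.2% in Mettl3-deficient livers. The mean share was 57.6 ± 5.94% against 35.3 ± 13.5% (SD, n = 3), and the exact two-sided permutation test gave p = 0.1, the smallest that 3 against 3 samples allow (adjusted p = 0.1 over the 2 shares tested). The catenins tie cadherins to the cytoskeleton, and 0 of 2 were called. Ctnnd1, which stabilises cadherins at the membrane, had 114 ± 10.1 CPM in wild type and 151 ± 5.07 CPM in Mettl3-deficient livers (SD, n = 3; log2 fold change 0.40, edgeR adjusted p = 0.102), and an annotated gene on the same strand shares 4482 of its 7319 exon bases. Ctnna1, alpha-catenin, had a log2 fold change of 0.16 ± 0.15 (SE; edgeR adjusted p = 0.442). Neither was called, except with library size alone.

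Of 5 desmosome genes 2 rose. Dsp, which encodes desmoplakin, the link to keratin filaments, was measured at 52.7, 56.1 and 56.6 CPM in wild type and at 99.1, 124 and 104 CPM in Mettl3-deficient livers. The wild-type libraries were nearly equal and the lowest Mettl3-deficient library was far above them. Dsp had a log2 fold change of 0.98 ± 0.15 (SE; edgeR adjusted p = 0.00603). Dsc2, a desmosomal cadherin, was measured at 42.2, 55.1 and 62.2 CPM in wild type and at 106, 89.2 and 99.7 CPM in Mettl3-deficient livers. Its log2 fold change was 0.89 ± 0.18 (SE; edgeR adjusted p = 0.0143), with the call lost on dropping either wild type replicate 2 or the first Mettl3-deficient library (highest edgeR adjusted p 0.0583).

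Dsg2, the partner cadherin of Dsc2 in the desmosome, had 117, 134 and 145 CPM in wild type and 126, 136 and 135 CPM in Mettl3-deficient livers, with a log2 fold change of 0.00 ± 0.17 (SE; edgeR adjusted p = 0.990). Jup, plakoglobin, which serves both desmosomes and adherens junctions, had 43.5, 80.7 and 71.9 CPM against 68.7, 59.7 and 64.4 CPM (log2 fold change -0.02, edgeR adjusted p = 0.948). Pkp2, a plakophilin, had 41.4 ± 6.42 CPM in wild type and 34.4 ± 2.49 CPM in Mettl3-deficient livers (SD, n = 3; edgeR adjusted p = 0.247). The difference between Dsc2 and Dsg2 was not itself tested. Dsg1c, a desmoglein gene between them that is no member and was chosen after its values were seen, rose from a mean of 7.23 ± 0.764 to 25.7 ± 7.18 CPM (edgeR adjusted p = 0.00339).

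Among connexins, Gjb1 was the junction gene that fell. Gjb1 encodes the main gap junction protein of hepatocytes and was the most abundant member per length. It was measured at 694, 675 and 667 CPM in wild type and at 430, 291 and 448 CPM in Mettl3-deficient livers. The wild-type libraries agreed closely, and Mettl3-deficient replicate 2 was the lowest of all. Gjb1 had a log2 fold change of -0.80 ± 0.24 (SE; edgeR adjusted p = 0.0465). The call was lost on dropping any library other than Mettl3-deficient replicate 3, with log2 fold changes from -0.91 to -0.63. With library size alone it was -0.34 (edgeR adjusted p = 0.245).

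Gjb2, the connexin that hepatocytes use beside Gjb1, was measured at 188, 255 and 211 CPM in wild type and at 293, 295 and 211 CPM in Mettl3-deficient livers, with overlap and no call (log2 fold change 0.29, edgeR adjusted p = 0.368). The share of Gjb2 in the counts per kb of both genes was 16.1%, 21.2% and 18.3% in wild type and 32.6%, 41.9% and 25.1% in Mettl3-deficient livers. The groups did not overlap, with means of 18.5 ± 2.51% and 33.2 ± 8.42% (SD, n = 3; exact two-sided permutation p = 0.1, the smallest possible here). Gja1, a connexin of stellate, ductal and vascular cells, rose from 2.22 ± 0.548 to 4.22 ± 0.110 CPM (mean ± SD of 3 livers; edgeR adjusted p = 0.0490). Its call was lost whichever library was dropped, with edgeR adjusted p-values from 0.0698 to 0.149. Per length Gja1 was at 0.216 RPKM in wild type against 397 RPKM for Gjb1.

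**Figure D4:**
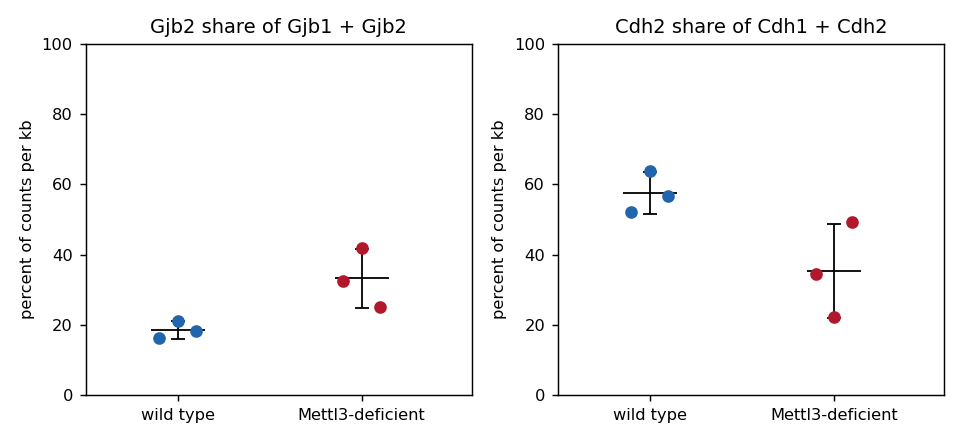
Points give the share of Gjb2 among Gjb1 and Gjb2 (left) and of Cdh2 among Cdh1 and Cdh2 (right), in percent of counts per kb, in each library, with the mean and SD of 3 libraries per group. Gjb2 lies at 16.1% to 21.2% in wild type and at 25.1% to 41.9% in Mettl3-deficient livers, and Cdh2 at 52.1% to 63.9% and at 22.3% to 49.2%.

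Of the 3 nectins, immunoglobulin proteins that start contacts with neighbouring cells, 1 rose and 0 fell. Nectin2 was measured at 40.2, 80.1 and 82.9 CPM in wild type and at 133, 135 and 131 CPM in Mettl3-deficient livers. Wild type replicate 1 was the lowest library, and the groups did not overlap. The log2 fold change of Nectin2 was 0.97 ± 0.27 (SE; edgeR adjusted p = 0.0364), and the call was lost on dropping any library other than wild type replicate 1 (highest edgeR adjusted p 0.0985). Nectin3 had 47.8, 58.5 and 55.3 CPM in wild type and 36.96, 24.6 and 40.3 CPM in Mettl3-deficient livers. Its log2 fold change was -0.67 ± 0.21 (SE; edgeR adjusted p = 0.0501), just outside the threshold. Nectin3 was called lower without wild type replicate 1 (edgeR adjusted p = 0.0486) or Mettl3-deficient replicate 3 (0.0379), with RLE factors (0.0494), with the CPM filter (0.0491) and with DESeq2 (0.0321). Nectin1 had 59.7, 74.3 and 71.6 CPM against 83.7, 88.5 and 135 CPM and was not called (log2 fold change 0.58, edgeR adjusted p = 0.0879). With a covariate for the Y-linked libraries Nectin1 was called (log2 fold change 0.71, edgeR adjusted p = 0.0182). Under that covariate Gja1, Gjb1 and Marveld3 lost their calls (edgeR adjusted p = 0.0744, 0.0562 and 0.0577).

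**Figure D5:**
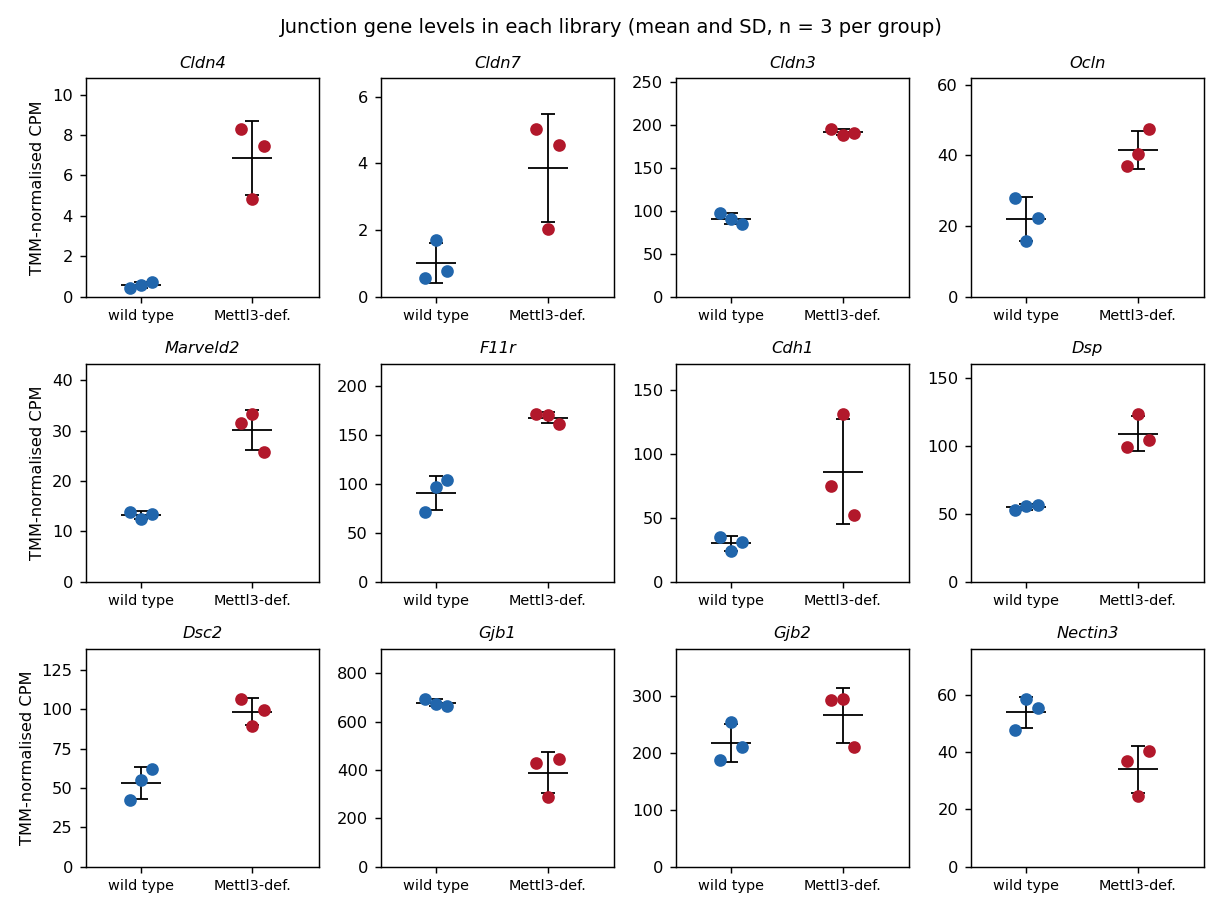
TMM-normalised CPM of 12 junction genes is plotted for each library, with the mean and SD of the 3 libraries per group on axes that start at 0. Cldn4 lies at 0.426 to 0.739 CPM in wild type and 4.83 to 8.32 CPM in Mettl3-deficient livers, while Gjb1 lies at 667 to 694 and 291 to 448 CPM and Gjb2 overlaps.

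A wider set of 103 junction genes outside the members, of which 66 were tested, had 10 that rose and 4 that fell, 21.2% called against 23.8% of all tested genes, with a median log2 fold change of 0.01. In 23 tested tight junction and polarity genes, 4 rose and 1 fell. The polarity genes Pard6b and Patj had log2 fold changes of 0.79 and 0.60 (edgeR adjusted p = 0.0213 and 0.0358). Arhgef2, whose product binds cingulin, had one of 3.03 (edgeR adjusted p = 0.0153), and Marveld1 one of -1.82 (edgeR adjusted p = 0.0165). In 17 cadherin and adherens genes the large cadherin gene Fat1 rose from a mean of 33.7 ± 2.10 to 69.2 ± 7.18 CPM (edgeR adjusted p = 0.00441) and Celsr1, a planar polarity cadherin, fell from a mean of 33.9 ± 6.27 to 6.82 ± 4.01 CPM (edgeR adjusted p = 0.0159). Ctnnb1, beta-catenin, was not called (log2 fold change 0.05 ± 0.18 SE, edgeR adjusted p = 0.844).

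In 6 tested desmosome and plakin genes, Evpl, the envoplakin gene of squamous epithelia, rose from 0.718 ± 0.148 to 3.90 ± 1.40 CPM (mean ± SD of 3 livers; edgeR adjusted p = 0.00650) and Pkp3 rose by 1.37 on the log2 scale. In 6 connexins and pannexins, Panx1 rose by 1.30 and Gjc3 fell by 1.84 on the log2 scale. In 13 immunoglobulin adhesion genes, Pvr, a nectin-like receptor, rose from a mean of 6.64 ± 0.335 to 18.2 ± 5.46 CPM (edgeR adjusted p = 0.00845), Clmp rose by 1.12 on the log2 scale, and Cadm4 fell from a mean of 8.52 ± 6.50 to 2.24 ± 0.375 CPM (edgeR adjusted p = 0.0310). Of the other claudins 1 was tested, Cldn8, and it was not called (log2 fold change -0.60). The number called among these genes was 30 when libraries were scaled by size alone. It was 5 on dropping Mettl3-deficient replicate 1, and 7 on dropping replicate 2 of either group or wild type replicate 3.

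Markers of liver cell types were also examined, and their part in the results was not tested. No listed marker was at 0 in all libraries. Of 77 tested marker genes 11 rose and 13 fell, 31.2% called against 23.8% of all tested genes. The share that rose was 14.3% of the markers and 13.3% of all tested genes. Of 13 tested bile duct markers 5 rose (Sox9, Muc1, Tspan8, Bicc1 and Prom1) and 0 fell. The summed level of the duct markers ran from 123 to 148 CPM in wild type and from 132 to 313 CPM in Mettl3-deficient livers. Spp1, not called, was the largest part of that sum in each library. It had 59.35, 88.33 and 98.25 CPM in wild type and 120.6, 51.3 and 180.6 CPM in Mettl3-deficient livers. The defining duct keratins Krt19 and Krt7 were not called (log2 fold changes 0.53 and 0.42). Epcam had 1.88, 3.71 and 2.22 CPM in wild type and 9.19, 2.86 and 11.9 CPM in Mettl3-deficient livers, with replicate 2 the lowest of its group. That library was also the lowest Mettl3-deficient one for Cldn4 and Cldn7, but the highest for Cdh1. Of 10 hepatocyte markers 5 fell, with Alb at 108600 to 141200 CPM in wild type and 32060 to 53330 CPM in Mettl3-deficient livers, Apoa1 not called and Ttr not called.

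Of 13 endothelial markers 3 fell and 0 rose, with Pecam1, Kdr and Stab1 not called and a summed level of 311 to 476 CPM in wild type and 301 to 327 CPM in Mettl3-deficient livers. Of 13 macrophage markers 5 rose, with Clec4f, Timd4 and Adgre1 not called and sums of 147 to 404 and 410 to 635 CPM. Of 12 stellate cell and fibroblast markers 1 rose, with Col1a1, Col1a2 and Col3a1 not called and sums of 443 to 498 and 375 to 740 CPM. Of 6 mesothelial markers 4 fell, among them Msln, Upk3b and Upk1b, with sums of 11.1 to 32.7 and 5.76 to 10.5 CPM. Of 10 lymphocyte markers 1 fell, Cd4, with Cd3e and Cd3g not called and sums of 4.56 to 6.46 and 4.99 to 6.51 CPM.

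Since Mettl3 writes its mark mostly within the letters GGAC of messenger RNA, these letters were counted in the longest coding transcript of each gene. The 15 junction genes that rose held a median of 4.54 GGAC per kb (quartiles 3.36 and 5.80). The 20 that were not called held 5.09 (3.45 and 5.84), and all 13279 tested genes with a transcript 4.15 (3.06 and 5.46). For the longer letters GGACT the medians were 1.226, 1.155 and 1.055 per kb in the same order. Cldn4 held 7.71 GGAC per kb, Cldn3 3.18 and Gjb1 5.05. These are counts of letters, and no measurement of the mark was used.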

How the data were processed

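Alignment by HISAT2 and counting by featureCounts on build mm10 were the authors' steps, per the submitters' processing notes. The sources used here do not give versions, annotation or strand setting. Per the labels' protocols, RNA from frozen livers was extracted with TRIzol, depleted of ribosomal RNA and made into directional libraries. The deposited values are raw counts per Entrez gene, without normalization, 31960205 to 36025772 per library. Symbols came from RefSeq GRCm38.p6 (25275 of 27179 identifiers matched), exon lengths and transcripts from GENCODE M21, and both are the mm10 assembly. One listed gene, Pals1, was matched through its RefSeq synonym.

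Groups came from the labels. The test was that of edgeR 4.0.16 under R 4.3.3 (robust quasi-likelihood F test, two-sided, TMM factors, group as the design, filterByExpr with a minimum count of 10 and total of 15), with Benjamini-Hochberg adjustment over 14380 genes and a threshold of 0.05. Standard errors are the absolute log2 fold change over the square root of F. The test was checked on simulated counts. Labels name livers only, so p-values cover only the spread among these libraries, which may be technical in part. Each group held libraries with and without Y-linked counts, so its libraries did not all come from the same animal. How many animals were used is not given. Alternatives were RLE factors, library size alone, DESeq2 1.42.0, no filter, a blocked fit on replicate number, a filter at CPM 1 in 3 libraries, a covariate for libraries with over 100 Y-linked counts, and each library left out.

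Members and lists were chosen with earlier results of these data known. All 37 members are named, with every called gene of the junction lists up to 6 per list, the first 3 markers of each cell type and Mettl3. One gene that the rule names is not reported here. Other genes (Sox9, Muc1, Tspan8, Bicc1, Prom1, Spp1, Cd4, Ctnnb1, Cldn8, Dsg1c and the neighbours) were chosen after their values were seen. Epcam and Pecam1 stand in both a junction and a marker list. No protein sequences were used.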

Additional observations from a re-analysis of the deposited data

How the results depend on the processing

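The number of genes called was 3420. It was 5405 with library size alone and ran from 1382 to 3514 when 1 library was left out. The 15 members that rose became 23 with library size alone and ran from 5 to 13 without 1 library. The 1 that fell became 2 with RLE factors or the CPM filter, 3 with DESeq2, and 0 with library size alone, no filter on low counts, the Y-linked covariate or the replicate block, and ran from 0 to 3 without 1 library. Other junction genes called, 14, became 30 with library size alone and ran from 5 to 13. Marker genes called, 24, became 14 with the replicate block and ran from 7 to 23.

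Replicate numbers are shared between the groups. The deviations of same-numbered libraries correlated at 0.084, -0.017 and 0.034, and not every library correlated best with its own number. With 3 libraries per group, these values cannot decide whether same-numbered libraries were paired. With the replicate block 2683 genes and 10 members were called, 10 of them among the 16 of the unblocked fit. The 6 lost were Cldn7, Cldn23, Gja1, Gjb1, Jam2 and Marveld3.

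No called member changed direction under any alternative run. Among members not called, values crossed 0 for Cldn5 (0.23), Jup (0.46) and Pkp2 (0.20) with library size alone, Jup with the Y-linked covariate (0.16) and the replicate block (0.019), and Dsg2 with DESeq2 (-0.005) and RLE factors (-0.01). Without 1 library the ranges that crossed 0 were -0.03 to 0.87 for Cldn6, -0.065 to 0.154 for Cdh2, -0.11 to 0.59 for Cdh5, -0.25 to 0.16 for Jup and -0.08 to 0.073 for Dsg2. The Gjb2 share difference ran from 10.3 to 18.7 percentage points and the Cdh2 one from -29.2 to -15.8. They were 16.7 and -22.2 with no length correction. The cause of these changes was not tested. Depth limits Cldn10 and Cldn23, with at most 8 counts summed over the wild-type libraries.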
